A study of Mus musculus with 4 samples.

Results

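Canonical paternally expressed imprinted genes are transcribed from the paternal chromosome because the maternal copy carries DNA methylation that was laid down in the oocyte. An embryo with maternal chromosomes only therefore has no active copy by this rule, while a gene that is not yet transcribed at the stage studied cannot show the loss. In the blastocyst the zinc finger protein ZFP57 and its partner TRIM28 keep this methylation in place through the genome-wide loss of methylation that follows fertilization. The genes described here were 10 members of this class: Plagl1, Peg3, Zdbf2, Impact, Mest, Peg10, Snrpn, Nnat, Mcts2 and Usp29. They were found by symbol among probe sets annotated to only 1 gene, which gave 19 of the 45037 probe sets that are not array controls, for 10 of 18193 genes. Where a gene had several probe sets, the one with the highest mean signal stood for it, and the others are given beside it.

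RNA came from mouse blastocysts collected on day 4, at 96 hours, and each of 4 Affymetrix arrays received RNA from 1 pool of 30 embryos. Parthenogenetic embryos, which have no sperm contribution, and fertilized embryos were each studied in diploid form and in tetraploid form after fusion, with 1 array for each of the 4 conditions. The series treats tetraploid embryos as pseudoreplicates of diploid embryos of the same origin. The strain, the way oocytes were activated and the sex of the embryos are not given in the sources used here. Parthenogenetic embryos of both ploidies share the absence of paternal chromosomes, so loss of paternal transcripts would be seen on both arrays. Because both ploidies of an origin served as its replicates (n = 2 arrays per origin), p-values rest on the spread within an origin, where ploidy, pool and technical error cannot be told apart.

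The deposited value is a MAS5 signal, a linear intensity that summarises the probe pairs of a probe set. The control floor is a level below which a signal was not taken as expression. It was set per array from 27 probe sets for bacterial transcripts, at their 95th percentile. It lay at 113 (diploid) and 150.3 (tetraploid) for parthenogenetic and at 145 and 99.7 for fertilized embryos. The parthenogenetic tetraploid array had the lowest correlations with the other arrays across probe sets (0.82 to 0.83, against 0.84 to 0.87 among the rest), and its ratio of the 3' to the middle Actb control was 9.28, against 5.13 to 7.55. The ratio of the 3' to the 5' control was high on all 4 arrays, at 108 to 137 for Actb and 19.0 to 27.3 for Gapdh. The 137 belonged to the fertilized diploid array. All 8 trophectoderm and 8 epiblast markers listed, and 7 of 8 primitive endoderm markers, were above the floor on all 4 arrays. Of the cumulus, oocyte and fibroblast markers on the array, 0 of 7, 0 of 8 and 0 of 7 were. At or below the floor on all 4 arrays were 2, 4 and 3 of them, so the rest exceeded it on some arrays. The summed signal of the cumulus markers was 929 (diploid) and 536 (tetraploid) for parthenogenetic and 720 and 332 for fertilized embryos. The summed signal of the epiblast markers in the diploid and the tetraploid pool was 11554 and 5814 for parthenogenetic and 12149 and 10419 for fertilized embryos, and that of the primitive endoderm markers was 23770 and 12222 for parthenogenetic and 24338 and 17427 for fertilized embryos. That of the trophectoderm markers ran from 100400 to 106214 over the 4 arrays. In such pooled RNA, fewer cells of a type and less RNA per cell cannot be told apart.

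Promoter sequence is shown for Plagl1, Peg3 and Zdbf2, the 3 members at least 2-fold lower in both ploidies of parthenogenetic embryos, since members of this class share control by methylation of CpG-rich DNA. RefSeq promoter windows of 300 bases (250 before and 50 after a start, build GRCm38.p6) were matched by symbol for 8 of the 10 members, all but Impact and Peg10. The sequences below are the 250 bases before the start of Plagl1 (chr10:13090582-13090831, plus strand), the 250 bases before the upstream start of Zdbf2 (chr1:63200108-63200357, plus strand) and the 163 bases between the opposed starts of Peg3 and Usp29 (chr7:6730420-6730582, plus strand, the direction of Usp29). Capitals mark TGCCGC on either strand, the hexamer that ZFP57 binds when it is methylated.
Plagl1: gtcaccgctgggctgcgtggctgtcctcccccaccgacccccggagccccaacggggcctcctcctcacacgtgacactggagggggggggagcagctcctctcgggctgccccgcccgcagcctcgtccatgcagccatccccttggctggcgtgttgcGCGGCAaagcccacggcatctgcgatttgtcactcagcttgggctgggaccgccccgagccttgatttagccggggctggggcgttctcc
Zdbf2: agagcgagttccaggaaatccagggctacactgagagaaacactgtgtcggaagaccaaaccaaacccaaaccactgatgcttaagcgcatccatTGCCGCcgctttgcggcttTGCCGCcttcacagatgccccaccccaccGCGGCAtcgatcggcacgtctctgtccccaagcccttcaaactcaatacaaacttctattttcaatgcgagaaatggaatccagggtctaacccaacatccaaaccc
Peg3 and Usp29: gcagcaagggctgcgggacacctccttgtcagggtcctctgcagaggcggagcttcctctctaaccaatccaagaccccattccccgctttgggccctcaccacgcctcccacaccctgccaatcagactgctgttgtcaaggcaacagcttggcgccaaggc
The Plagl1 stretch holds 1 hexamer and 19 CpG, the Zdbf2 stretch 3 hexamers and 13 CpG, and the stretch between Peg3 and Usp29 0 hexamers and 5 CpG.

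Counted over the full windows, TGCCGC was found on either strand in at least 1 window of 6 of the 8 genes (Plagl1, Zdbf2, Mest, Mcts2, Nnat and Snrpn) and in 7 of their 14 windows. Of all 32851 windows of that length, 11.6% held it, and 13.1% of genes had a window with it. The upstream window of Zdbf2 held 3, a number reached by 0.234% of all windows. The letters GCCATNTT, a form of the site of the zinc finger protein YY1, were on either strand in 0 of the 14 windows and in 6.05% of all. The Peg3 and Usp29 windows held 13 and 17 CpG, against a median of 7 over all windows. The Snrpn windows held 2, 3, 4 and 7, and the remaining windows of members ran from 8 (Mest) to 38 (Zdbf2). These matches describe letters in the windows and say nothing about binding.

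Plagl1 and Peg3, both zinc finger transcription regulators, fell in parthenogenetic embryos, and they were the only members past the threshold of the test. Values were compared as log2(signal + 10) with limma, with Benjamini-Hochberg adjustment over all 23746 probe sets tested and a threshold of 0.05. Of the 10 members, 7 passed the filter on dim signals and were tested, 2 were called lower and 0 higher, beside 0.105% of probe sets tested that were called lower and 0.173% called in either direction. At an unadjusted p under 0.05, 3 of the 7 passed, beside 2103 of all 23746 probe sets tested. At that level 0 probe sets of any member were higher.

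Plagl1, a transcription factor known for slowing cell division, gave parthenogenetic signals of 146 (diploid) and 79.4 (tetraploid) and fertilized signals of 2473 and 2880. The groups lay far apart, and the parthenogenetic diploid signal was above the floor of its array while the tetraploid signal was below. The log2 difference, parthenogenetic minus fertilized, was -4.51 ± 0.39 SE (2 arrays against 2, adjusted p 3.26e-04 from limma), a fitted 22.7-fold that uses the tetraploid signal below the floor. With the floor in its place the decrease was at least 17.0-fold over both pairs of arrays and at least 18.0-fold for the tetraploid pair, against 16.0-fold (-4.00) for the diploid pair.

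The other Plagl1 probe sets did not repeat this. Probe set 1438588_at gave parthenogenetic signals of 7.39 and 195 and fertilized signals of 220.1 and 109, with the parthenogenetic tetraploid array between the fertilized ones (log2 difference -1.47 ± 1.32, limma adjusted p 0.75). Probe set 1450533_a_at was below the floor on all 4 arrays, between 3.65 and 31.3. Which transcripts of Plagl1 each probe set measures was not tested.

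Peg3, a zinc finger gene known for roles in growth and maternal care, gave parthenogenetic signals of 106 and 48.3 and fertilized signals of 1577 and 1674. Both parthenogenetic signals were below the floor, so the decrease was at least 11.6-fold (fitted log2 difference -4.31 ± 0.44, limma adjusted p 0.0011). A dimmer probe set, 1417355_at, had signals of 39.1 and 9.39 against 715 and 420.1, at least 3.97-fold apart with both parthenogenetic signals below the floor (fitted -4.18 ± 0.85, adjusted p 0.13). The remaining 3 Peg3 probe sets were below the filter and had at most 1 array above the floor. Their signals ran from 1.48 to 120, and the 120 belonged to the parthenogenetic diploid array. Without the intensity trend in limma, 0 probe sets of any gene passed, and Plagl1 and Peg3 each had an adjusted p of 0.18 with unchanged differences.

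**Figure D1:**
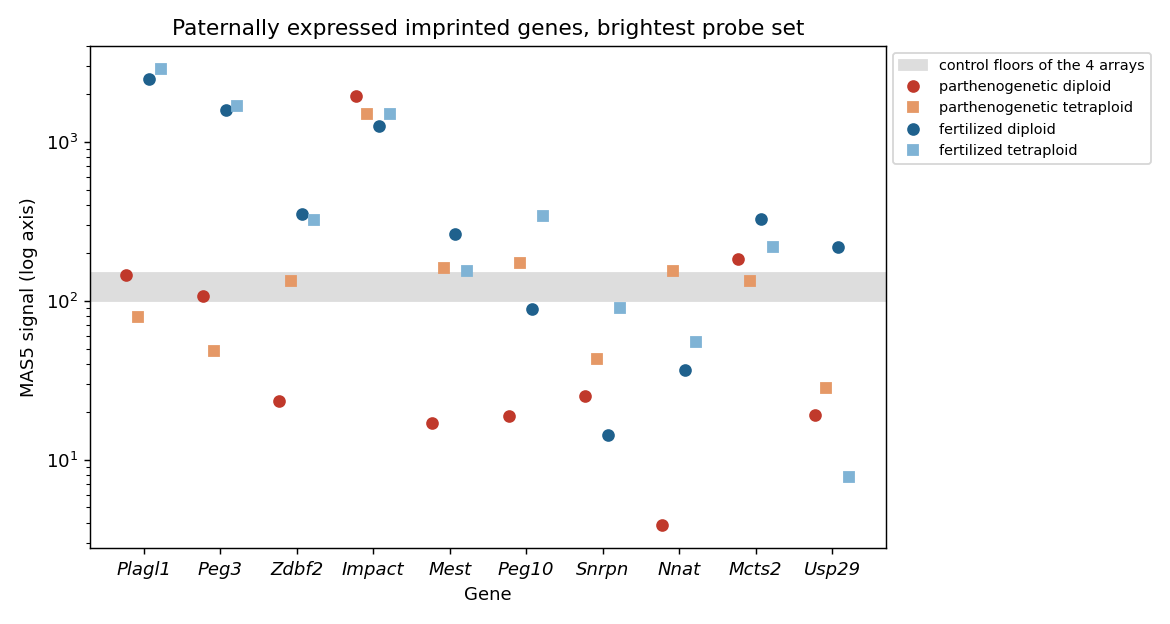
MAS5 signal (log axis) of the brightest probe set of each of the 10 genes on the 4 arrays, with circles for diploid, squares for tetraploid embryos and a grey band for the range of the control floors (99.7 to 150.3). Plagl1 and Peg3 have fertilized signals of 1577 to 2880 and parthenogenetic signals of 48.3 to 146. Impact lies between 1261 and 1936, and the others run from 3.86 (Nnat) to 352 (Zdbf2), from below to above the band.

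Zdbf2, a zinc finger gene whose paternal expression begins from an upstream start in the early embryo, gave parthenogenetic signals of 23.2 and 134 and fertilized signals of 352 and 323. Its parthenogenetic signals were below the floor and its fertilized signals above, at least 2.47-fold apart (log2 difference -2.33 ± 0.80), but it did not pass over all probe sets (limma adjusted p 0.45). By pair of arrays it was at least 2.94-fold (diploid) and 2.08-fold (tetraploid). When single arrays were left out, Zdbf2 passed only without the parthenogenetic tetraploid array (-3.38, limma adjusted p 0.017). Leaving out its parthenogenetic counterpart in diploid embryos gave -1.27 (adjusted p 0.24). Dropping a fertilized array gave -2.27 (adjusted p 0.92, diploid dropped) or -2.39 (adjusted p 0.80, tetraploid dropped). In these fits the lone array of an origin is assumed to vary like the other group.

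By the floor alone, Peg3 and Zdbf2 were the 2 members above it on both fertilized and at or below it on both parthenogenetic arrays. This pattern was found for 1.35% of all probe sets that are not controls, and for 1.13% of genes by their brightest probe set. With the highest bacterial control signal as the floor, Plagl1 and Mest joined them, which made 4. Without the parthenogenetic diploid array Plagl1 and Mcts2 joined them, again 4. In all, 6 members were above the floor on both fertilized arrays: Plagl1, Peg3, Zdbf2, Impact, Mest and Mcts2. At least a 2-fold lower signal in both ploidies was found for Plagl1, Peg3 and Zdbf2, 3 of 10 members, beside 3.24% of all probe sets. The groups did not overlap, with parthenogenetic signals lower, for these and Mcts2, 4 of 10 members. Beside them stood 15.3% of all probe sets, and 16.1% of genes by their brightest probe set.

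Snrpn and Snurf are 2 reading frames of 1 transcript, and Snrpn encodes a protein of the spliceosome known from brain. The only probe set annotated to Snrpn alone, 1432096_at, gave parthenogenetic signals of 25.0 and 43.0 and fertilized signals of 14.3 and 89.96, all below the floor, with overlapping groups. Taken by itself it would place Snrpn as the 1 member at or below the floor on all 4 arrays. There lay 28.1% of all probe sets, and 20.5% of genes by their brightest probe set. The rule leaves out 6 probe sets annotated to both Snurf and Snrpn, and these were looked at after the values were seen. They cannot be assigned to either gene and enter no count of members.

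Among these shared probe sets, 3 were tested and all 3 were called lower. Probe set 1435716_x_at gave parthenogenetic signals of 11.2 and 22.4 and fertilized signals of 2976 and 2402, at least 19.1-fold lower (fitted log2 difference -6.68 ± 0.47, limma adjusted p 6.54e-05). Probe set 1415896_x_at had 376 and 157 against 4076 and 2319 (-3.60 ± 0.44, limma adjusted p 0.0049). The brightest, 1415895_at, kept clear signal in parthenogenetic embryos, with 1247 and 1134 against 5506 and 4796 (4.29-fold lower, -2.10 ± 0.28, limma adjusted p 0.0083). The fertilized groups of all 3 lay above the parthenogenetic ones without overlap. The same shared annotation thus covered parthenogenetic signals from 11.2 to 1247, and whether other transcripts add to the brighter ones was not tested. The other 3 were below the floor on all 4 arrays. If the brightest shared probe set stood for Snrpn, 3 members would be called lower and 0 would be at or below the floor on all arrays.

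**Figure D2:**
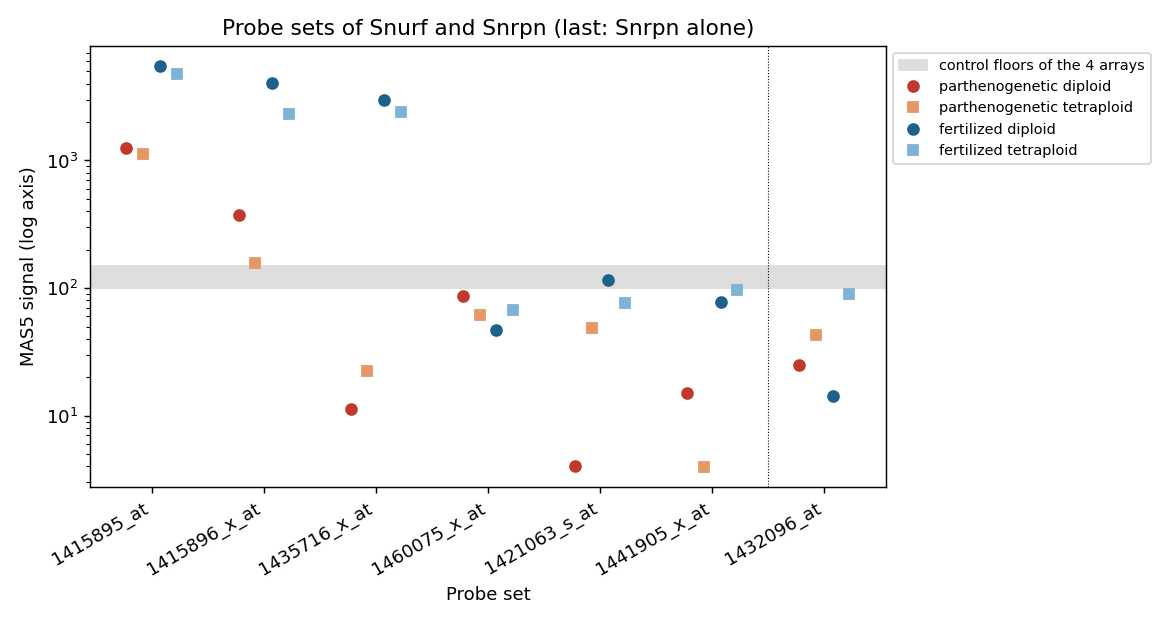
MAS5 signal (log axis) of the 6 probe sets annotated to both Snurf and Snrpn, by falling mean signal, and, right of the dotted line, of the 1 annotated to Snrpn alone, with symbols for the 4 arrays and a grey band for the control floors. The first 3 separate the origins, with fertilized signals of 2319 to 5506, and the other 4 lie at or below the band.

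Impact, which restrains the amino acid sensing kinase GCN2, was the 1 member above the floor on all 4 arrays, as were 34.9% of all probe sets, and 0 of its 3 probe sets passed the test of origin. Its brightest probe set gave parthenogenetic signals of 1936 and 1501 and fertilized signals of 1261 and 1487. The groups did not overlap, but the tetraploid signals were only 1.01-fold apart. The log2 difference was 0.31 ± 0.31 (limma adjusted p 0.76), and it was -0.0074 with scaling to a common median. Probe set 1415911_at had 862 and 1304 against 897 and 1302, so that ploidies rather than origins paired up (-0.03 ± 0.35, adjusted p 0.99). Probe set 1446751_s_at had 802 and 334 against 324 and 295, with the parthenogenetic diploid array alone high (0.73 ± 0.46, adjusted p 0.65).

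Mcts2, a copy of the translation factor gene Mcts1 that arose by retrotransposition, gave parthenogenetic signals of 182 and 134 and fertilized signals of 329 and 218. The groups did not overlap, and the difference was similar in both ploidies (-0.82 diploid, -0.66 tetraploid), but it did not pass (-0.74 ± 0.53, limma adjusted p 0.68). Mcts1 itself, on the X chromosome, was bright on all arrays, with 3273 and 3668 against 3173 and 2638 (0.26 ± 0.27, adjusted p 0.78). Whether Mcts1 transcripts add to the Mcts2 signal was not tested. Of 8 listed parent genes and paralogs of the members, 7 were found and 5 tested, with 0 called by limma (1 at an unadjusted p under 0.05).

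Mest, which encodes a membrane hydrolase of mesoderm and placenta, gave parthenogenetic signals of 17.1 and 160 and fertilized signals of 263 and 154. Only the parthenogenetic diploid array was below its floor, and the groups overlapped (log2 difference -1.64 ± 1.04, limma adjusted p 0.65). The difference was at least 2.21-fold for the diploid pair of arrays (fitted -3.33) and 0.05 on the log2 scale for the tetraploid pair. Peg10, a gene derived from a retrotransposon and needed for the placenta, had signals of 18.9 and 172 against 88.4 and 339. The tetraploid array was the higher one in both origins, and the groups overlapped (-1.35 ± 1.13, limma adjusted p 0.73). Over 12 alternatives the difference ran from -2.96 to -0.32 for Mest and from -2.68 to -0.03 for Peg10, and neither passed under any of them.

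Nnat, which encodes a small membrane protein of neurons and fat cells, and Usp29, a ubiquitin protease gene, were too dim to be tested. Nnat gave parthenogenetic signals of 3.86 and 154 and fertilized signals of 36.6 and 54.7, so that only the parthenogenetic tetraploid array exceeded its floor, by little. Usp29 had 19.0 and 28.2 against 218 and 7.74 by 1 probe set, where only the fertilized diploid array was above the floor. Its other probe set had 10.2 and 30.2 against 16.6 and 64.2, all below. Neither gene was above the floor on both fertilized arrays, and neither were Peg10 and, by the probe set of its own, Snrpn. Of these, Peg10 and Usp29 were above it on 1 fertilized array, and Nnat and Snrpn on 0.

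**Figure D3:**
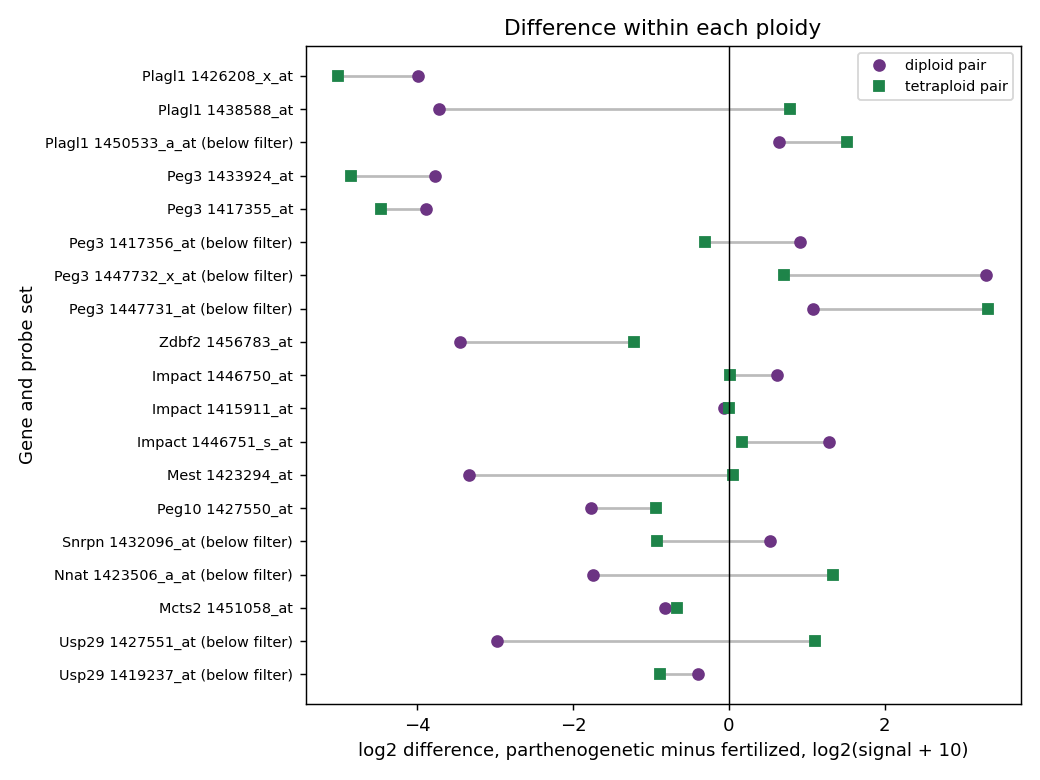
Log2 difference, parthenogenetic minus fertilized on the log2(signal + 10) scale, for each of the 19 probe sets of the members, with circles for the diploid and squares for the tetraploid pair of arrays. The brightest probe sets of Plagl1 and Peg3 lie at -3.77 or lower in both pairs, while Mest runs from -3.33 to 0.05, and Nnat and Usp29 1427551_at, with most signals below the floor, change sign between the pairs.

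Between the diploid arrays 7 of 10 members were at least 2-fold lower in parthenogenetic embryos, beside 16.5% of all probe sets, and between the tetraploid arrays 3 of 10 were, beside 14.9%. Part of this rests on signals below the floor, and Peg10 and Nnat were below it on both diploid arrays. With such signals set to the floor, a setting added after seeing the data, 4 members remained at least 2-fold lower in the diploid pair (Plagl1, Peg3, Zdbf2 and Mest), beside 2.86% of all probe sets, and the first 3 of them in the tetraploid pair, beside 2.82%. With 1 array a side, no difference between ploidies was tested. The probe sets of Nnat and of Usp29 named above, 2 of 19, differed at least 2-fold in opposite directions in the ploidies, beside 8.32% of all probe sets, but each had 1 array above the floor and both signals of a pair below it. The parthenogenetic tetraploid array was at least 2-fold above the parthenogenetic diploid array for 4 of 10 members (Zdbf2, Mest, Peg10 and Nnat), beside 19.6% of all probe sets, but all 4 were below the floor on the diploid array and Zdbf2 on both, so the size of these differences was not measured. The parthenogenetic tetraploid array also had the highest Actb ratio of 3' to middle and the lowest sums of the epiblast and primitive endoderm markers, whose part in the result was not tested. In the limma fit of ploidy with origin as a covariate, 0 of 11 member probe sets passed (1 at an unadjusted p under 0.05, lowest adjusted p 0.82), and 0 of all 23746 did (1424 at an unadjusted p under 0.05).

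Over both ploidies, 9 of the 10 members had lower values in parthenogenetic embryos. The share of all probe sets with lower values was not counted. The 9 include Snrpn, below the floor on all 4 arrays, and Nnat, above it on the parthenogenetic tetraploid array only. The median log2 difference of the members was -1.15, beside 0.10 for all probe sets that are not controls. With signals below the floor set to the floor, the median of the members was -0.51. In that setting Snrpn showed no difference, and Nnat was higher in the tetraploid pair (0.58). Scaled to a common median, Impact was below 0 as well. Nnat, Snrpn and Usp29, all below the filter, changed sign when single arrays were left out, and Nnat also with a pseudocount of 50 (0.14). With no floor applied, the median of the members was -0.53 without the parthenogenetic diploid and -2.33 without the parthenogenetic tetraploid array. With scaling to a common median it was -1.39, where the median of all probe sets tested moved from 0.014 to -0.30.

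**Figure D4:**
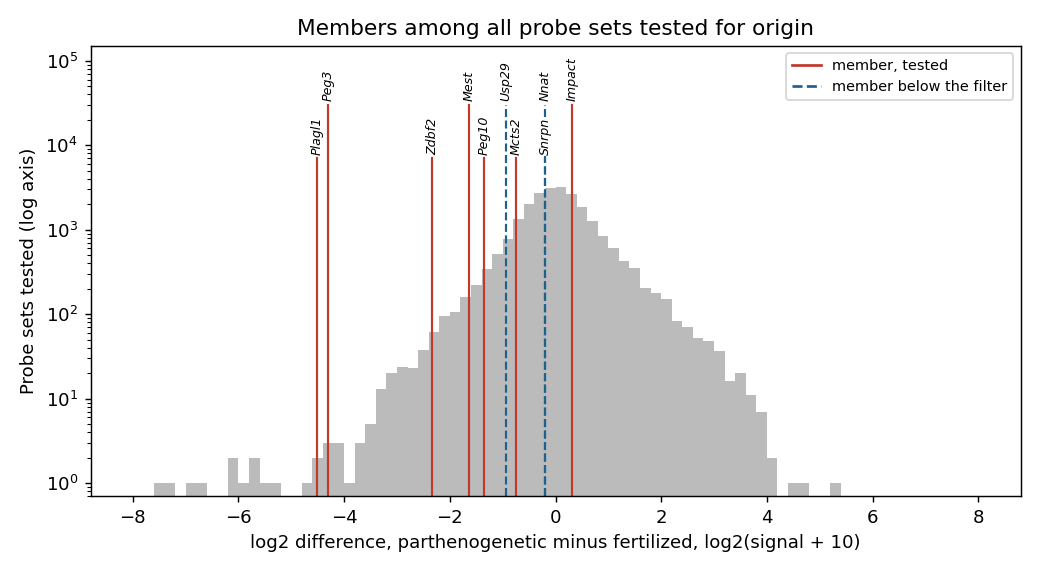
Histogram of the log2 differences, parthenogenetic minus fertilized, of the 23746 probe sets tested (log axis for their number), with lines at the members, solid where tested and dashed where below the filter. Plagl1 at -4.51 and Peg3 at -4.31 stand in the thin left tail, and the members from Usp29 to Impact lie in the bulk of the distribution.

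Genes beside the members were read in the same way. The array held 29 of 31 listed neighbours, with a median of 0.43. Of the 20 that entered the test limma called 0 lower and 0 higher (5 at an unadjusted p under 0.05). These 5 were Ctnnbl1, Ppp1r9a, Klf14, Nrp2 and Hdac2, all higher in parthenogenetic embryos. Peg3 and Usp29 start on opposite sides of the 163 bases printed above. Peg3 was bright in fertilized embryos and Usp29 was above the floor on 1 array. Zim1, a maternally expressed neighbour of Peg3, gave parthenogenetic signals of 127 and 88.5 and fertilized signals of 54.2 and 2.49, above the floor on 1 array only. Mcts2 lies inside H13, a signal peptide peptidase gene with 491 and 423 against 311 and 222, higher in parthenogenetic embryos without overlap, where Mcts2 was lower, but not past the test (0.77 ± 0.41, limma adjusted p 0.60). Nnat lies inside Blcap, which was bright on all arrays with 889 and 934 against 738 and 1172 (-0.03 ± 0.35, adjusted p 0.98) while Nnat was not. Sgce, which shares its promoter region with Peg10, had 149.6 and 177 against 312 and 174 (-0.50 ± 0.55, adjusted p 0.80). As for Peg10, its groups overlapped.

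**Figure D5:**
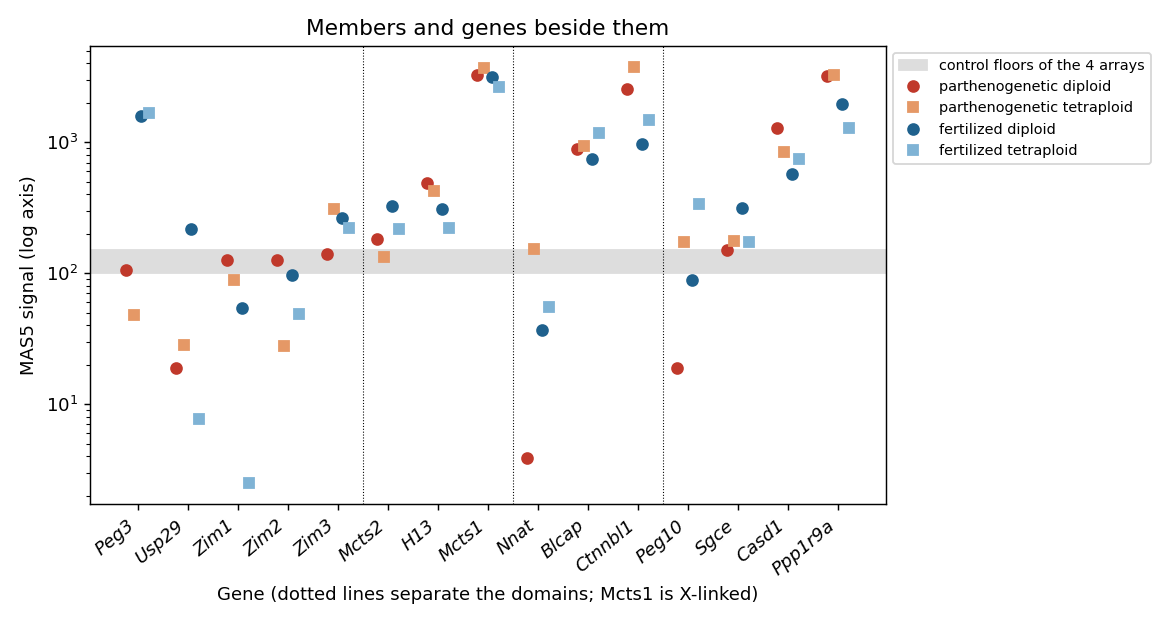
MAS5 signal (log axis) of Peg3, Mcts2, Nnat and Peg10 with genes beside them, on the 4 arrays, with a grey band for the control floors and dotted lines between the groups of neighbours (Mcts1 is the X-linked parent of Mcts2). Peg3 is the 1 gene shown whose fertilized signals (1577 and 1674) lie above and its parthenogenetic signals (106 and 48.3) below the floors of their arrays.

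Other canonical paternally expressed genes were a mixed group too. Of 23 listed, 16 were on the array, with a median of -0.07. Of these, 13 were tested (2 at an unadjusted p under 0.05, Snhg14 and Kcnq1ot1, both lower). Snhg14, the noncoding RNA downstream of Snurf and Snrpn, fell (9.46 and 61.0 against 786 and 1032, at least 6.48-fold, limma adjusted p 0.025), and 0 were called higher. This gene lies in the same domain as the shared Snurf and Snrpn probe sets that fell. Kcnq1ot1 had 38.8 and 124 against 942 and 596, at least 5.40-fold lower, but did not pass (fitted -3.23 ± 0.57, limma adjusted p 0.065). Snhg14, Kcnq1ot1 and Ndn, 3 of 16, were above the floor on both fertilized and at or below it on both parthenogenetic arrays. Beside them stood 1.13% of genes by their brightest probe set. For Ndn the groups overlapped. Gpr1, next to Zdbf2, had 282 and 106 against 162 and 96.9, above the floor on the diploid arrays only (0.44 ± 0.73, limma adjusted p 0.87). Of 6 listed genes whose paternal expression depends on histone methylation in place of DNA methylation, all 6 were tested. Of these, 4 were called lower (Sfmbt2, Gab1, Slc38a4 and Jade1), beside 0.105% of all probe sets tested. Among the canonical members, 2 of the 7 tested were called lower, and the shared Snurf and Snrpn probe sets are not counted there. The difference between these shares was not tested.

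Genes that protect imprints were above the floor on all 4 arrays in 16 of 18 cases. The array held all 18 genes of this list, of which 16 entered the test, and limma called 0 (3 at an unadjusted p under 0.05). Trim28 was not among these 3 and gave parthenogenetic signals of 10119 and 5524 and fertilized signals of 15998 and 8790 (-0.66 ± 0.35, limma adjusted p 0.60). The 3 were Dppa3, Dnmt1 and Dnmt3a. Dppa3, an oocyte factor that guards maternal methylation, had 2059 and 2032 against 4712 and 2752 (-0.81 ± 0.31, limma adjusted p 0.52). Dnmt1, the maintenance methyltransferase, had 2681 and 2846 against 6175 and 3324 (-0.71 ± 0.32, adjusted p 0.56). Dnmt3a, a methyltransferase that sets new methylation, had higher parthenogenetic signals, 1071 and 1977 against 637 and 809 (1.01 ± 0.37, adjusted p 0.48). Zfp57, below the filter, had 23.0 and 53.0 against 224 and 27.8, above the floor on the fertilized diploid array alone.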

How the data were processed

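RNA of 4 pools of 30 blastocysts was amplified in a pair of rounds and hybridised to Affymetrix arrays, per the labels' protocols. The authors deposited 1 intensity per probe set, a MAS5 signal, per the submitters' processing notes, which give no version. The deposited scaling was kept, since the trimmed mean (2% off either tail) came to 500.0 for every array. Genes came from the platform annotation: of 45101 probe sets, 34958 had 1 symbol, 932 several and 9211 none, and 34754 matched RefSeq GRCm38.p6 by gene number. Probe sets were tested when their signal reached the array median on at least 2 arrays (23746). Limma 3.58.1 in R 4.3.3 (lmFit, eBayes with intensity trend) was run on log2(signal + 10), which understates fold changes of dim genes, for origin without a ploidy term (2 residual degrees of freedom). Tested on simulated data with 2 arrays a side, it made more false calls than the threshold allows for. A "fold" is fitted on that scale. A fold of "at least" puts the control floor in place of lower signals. An exact test of 2 against 2 arrays cannot go below p = 0.33. Without scan dates no test of batches was made. The members and lists were chosen with earlier results of these data known, and the control floor was taken over from them. Named were all members, and from the lists genes that passed or lie in a member's domain. Trim28, Dppa3, Dnmt1, Dnmt3a, Zfp57, Mcts1, Ndn and Kcnq1ot1 were named as well, after their values were seen. Alternatives were other pseudocounts, filters, scalings, floors and probe set rules, ploidy as a block, no trend, and each array left out. Precision is limited by the 4 arrays.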

Additional observations from a re-analysis of the deposited data

Results flagged for a closer look

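Members were singled out where the diploid and the tetraploid pair of arrays differed at least 2-fold in opposite directions, which 8.32% of all probe sets did. Nnat (1423506_a_at) had a log2 difference, parthenogenetic minus fertilized, of -1.75 in the diploid and 1.34 in the tetraploid pair. Usp29 (1427551_at) had -2.98 and 1.11. Each had 1 array above the control floor, and the difference between the ploidies was not tested.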

How the results depend on the processing

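The call of Plagl1 and Peg3 held under 11 of 12 alternatives, with differences of -4.91 to -4.10 and of -4.81 to -3.76. Without the intensity trend, 0 probe sets and 0 members were called. The cause was not tested. With ploidy as a replicate block, 142 probe sets were called, 89 higher and 53 lower, including the 41 of the fit without it, and the block changed no call of a member. Leaving out 1 array gave 46 to 715 probe sets (715 when the parthenogenetic diploid array was dropped and 175 when the tetraploid one was), 2 to 3 members called, and a median of the members between -2.33 and -0.53. The common median scaling gave 7 higher and 30 lower probe sets in place of 16 and 25. Impact was -0.0074 under it. Members above the floor in fertilized and at or below it in parthenogenetic embryos numbered 4 with the highest control signal as floor and 2 to 4 with 1 array left out. Members at or below the floor on all arrays numbered 2 with that floor or with the array median as floor, 1 to 2 with 1 array left out, and 0 with the shared Snurf and Snrpn probe set, an alternative chosen after seeing the data. The other members kept lower values under all 12 alternatives (Zdbf2, Mest, Peg10 and Mcts2), 11 (Usp29), 10 (Snrpn) or 9 (Nnat). With signals below the floor set to the floor, also chosen after seeing the data, the median of the members was -0.51. Signals near the control floor limit what can be said of Mest, Peg10, Nnat and Usp29.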
